A study of Homo sapiens with 52 samples.

Results

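The genes described here are the G1 cyclins and the kinases they activate, chosen by name: CCND1, CCND2, CCND3, CCNE1, CCNE2, CDK2, CDK4 and CDK6. They are 8 of the 59408 genes listed in the tables of the series, and all 8 were among the 14876 genes tested. The cells were WI-38, a strain of normal human lung fibroblasts of wild-type genotype that divides a limited number of times. RNA was sequenced from untreated young cells at a population doubling level (PDL) of 32 to 46 and from cells exposed over 24 h to the membrane-damaging detergent SDS at 0.009% (PMD-Sen), to KCl at 75 mM, which depolarizes cells and raises their calcium (Ca2+-Sen), or to the DNA-damaging drug doxorubicin at 250 nM (DDR-Sen). Collection of treated cells began when the treatment ended (day 0), went on daily to day 4, and closed with days 6, 8 and 16. Replicatively senescent cells (RS) had been passaged until they stopped dividing at about PDL 52. The labels give 2 libraries for each of the 26 groups, which the study's methods call independent samples, without saying whether they were separate cultures.

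Cells leave G1 through a relay of cyclin-dependent kinases. The D-type cyclins (CCND1, CCND2, CCND3) are made in response to growth factors and activate CDK4 and CDK6, which begin to phosphorylate the retinoblastoma protein RB. E2F factors released from RB raise the E-type cyclins (CCNE1, CCNE2), which activate CDK2 and open S phase. Senescent fibroblasts are known for a stable arrest in which CDK inhibitors hold these kinases in check, and for high levels of some D-type cyclins despite the arrest.

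The 3 D-type cyclins carry near their start a short stretch that docks on RB, and the kinases carry a helix that cyclins pack against. These stretches are shown because they are sites through which the D-type cyclins and the kinases meet their partners. Each line gives 60 bases of the coding sequence, 5′ to 3′, from the GENCODE transcripts for GRCh38. For the cyclins the 60 bases begin at the first base of the coding sequence, and capitals mark the codons of the RB-docking stretch. For the kinases they begin at base 127 (CDK4), 142 (CDK6) and 112 (CDK2), and capitals mark the codons of the cyclin-binding helix.
CCND1: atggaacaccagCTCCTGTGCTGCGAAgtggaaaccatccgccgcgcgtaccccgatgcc
CCND2: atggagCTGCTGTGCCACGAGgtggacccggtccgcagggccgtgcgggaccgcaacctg
CCND3: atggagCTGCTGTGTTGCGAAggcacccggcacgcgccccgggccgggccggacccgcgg
CDK4: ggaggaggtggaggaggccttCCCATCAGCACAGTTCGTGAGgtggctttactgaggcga
CDK6: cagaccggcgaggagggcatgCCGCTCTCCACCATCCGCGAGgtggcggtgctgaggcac
CDK2: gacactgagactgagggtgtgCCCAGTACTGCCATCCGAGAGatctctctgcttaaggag
Over their whole coding sequences CCND1 and CCND2 were identical at 70.0% of 856 aligned bases, CCND2 and CCND3 at 70.0% of 853, CCND1 and CCND3 at 66.6% of 848, and CDK4 and CDK6 at 68.8% of 900. No stretch of 50 bases was shared between the annotated transcripts of any 2 of the 8 genes (0 shared windows in each pair), so a perfect read of that length from one of the 8 matched none of the others.

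The deposited tables hold, for each gene, the mean of normalized counts over a treated group and the untreated group, the log2 fold change and its standard error (SE), and a p-value, and they hold no value of a single library. A level per group on 1 common scale of normalized counts was computed from the mean and the fold change. Errors are the SE of the log2 fold change, with 2 libraries in each group throughout. A gene was called where the p-value of the authors' DESeq2 table, after Benjamini-Hochberg adjustment across the 14876 genes tested in that table, was under 0.05. The counted reads per library, recovered from genes with 1 read in 1 library, were 15.4 M and 18.8 M for the untreated pair and 19.1 M to 58.0 M for the others. The same untreated pair enters all 25 comparisons, so a chance value there would appear in each of them. The labels give this pair no day and list no untreated cells for the later days. In the courses over days, time in culture therefore cannot be told apart from the treatment. In bulk RNA, fewer cells with a transcript and less of it per cell cannot be told apart.

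The label of the cells was checked first. All 10 fibroblast markers were tested, with a summed level of 819915 in untreated cells and 422721 to 966492 in the other groups. Of these 10, PMD-Sen had 7 called lower and 1 higher on day 0, 7 and 0 on day 1, and 8 and 1 on day 2. Their median log2 fold changes on these days were -0.95, -0.97 and -0.90. Day 0 of Ca2+-Sen had 6 lower and 3 higher (median -0.41), and day 0 of DDR-Sen 2 lower and 0 higher. Of all tested genes, 40.0%, 19.7% and 15.8% were called in either direction on these 3 days of PMD-Sen. The share was 50.2% on day 0 of Ca2+-Sen and 27.9% on day 0 of DDR-Sen. Of 5 epithelial markers only KRT19 was tested (968 normalized counts in untreated cells, 225 to 2098 elsewhere), and the other 4 stayed at or below 16.9. The 3 endothelial markers summed to 36.3 in untreated cells and 25.4 to 172 elsewhere, and the 4 white blood cell markers to 3.85 and 3.48 to 25.4. The endothelial marker PECAM1 was called once, on day 0 of Ca2+-Sen. It had 106 normalized counts there against 2.17 in untreated cells (5.71 ± 0.92, adjusted p = 4.7e-09). VWF was at 34.1 in untreated cells and 22.2 to 71.2 elsewhere, and was never called. CDH5 stayed at or below 1.46 in every group.

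**Figure D1:**
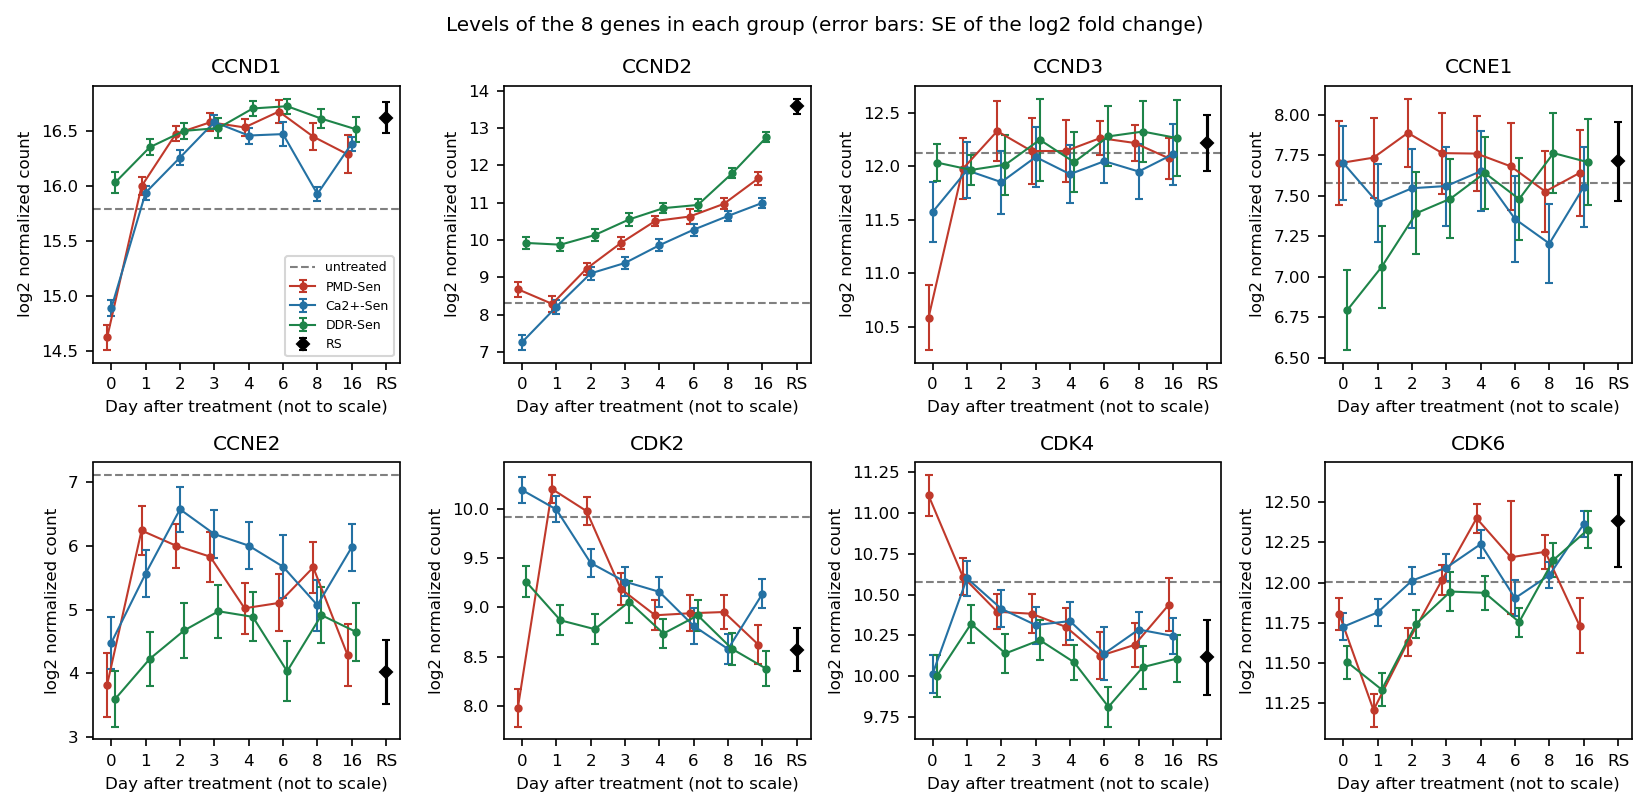
Level of each gene (log2 of normalized counts, y axis) on each day after SDS (PMD-Sen), KCl (Ca2+-Sen) or doxorubicin (DDR-Sen) treatment and in RS (x axis); points are group levels, error bars the SE of the log2 fold change, and the dashed line is the untreated level. CCND2 lies at 322 in untreated cells and at 12281 in RS, a separate group of cells. CCNE2 lies below the dashed line in every group, and CCND3 and CCNE1 stay near it on most days.

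Counts of called genes differed with the inducer and the day. In PMD-Sen 5 of the 8 genes were called on day 0, beside 40.0% of all tested genes. The later days of PMD-Sen gave 2 of 8 on day 1 (19.7% of all tested genes), 4 on day 2 (15.8%), 4 on day 3 (11.5%), 5 on day 4 (15.7%), 5 on day 6 (12.8%), 5 on day 8 (11.8%) and 4 on day 16 (21.2%). In Ca2+-Sen 5 were called on day 0 (50.2%), 1 on day 1 (12.5%), 3 on day 2 (4.34%), 3 on day 3 (10.5%), 4 on day 4 (12%), 4 on day 6 (10.2%), 4 on day 8 (33.4%) and 6 on day 16 (11.9%). In DDR-Sen the counts were 7 on day 0 (27.9%), 5 on day 1 (19.5%), 6 on day 2 (12.7%), 5 on day 3 (11.6%), 5 on day 4 (18.5%), 6 on day 6 (24.5%), 5 on day 8 (22.1%) and 6 on day 16 (29.9%). RS gave 4 of 8 (23.2%). Summed over 8 days, PMD-Sen had 34 calls of 64, Ca2+-Sen 30 and DDR-Sen 45. These calls share the untreated pair, and the matching share of all tested genes over the summed days was not computed. The daily shares of all tested genes ranged from 11.5% to 40.0% in PMD-Sen, 4.34% to 50.2% in Ca2+-Sen and 11.6% to 29.9% in DDR-Sen. The shares on day 1 of PMD-Sen (2 of 8) and on day 0 of Ca2+-Sen (5 of 8) were near their background. On day 1 of Ca2+-Sen (1 of 8) the share was equal to it. The genes did not move together: their median log2 fold change lay between -0.68 (PMD-Sen day 0) and 0.16 (DDR-Sen day 8), while the median over all tested genes lay between -0.04 and 0.02.

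**Figure D2:**
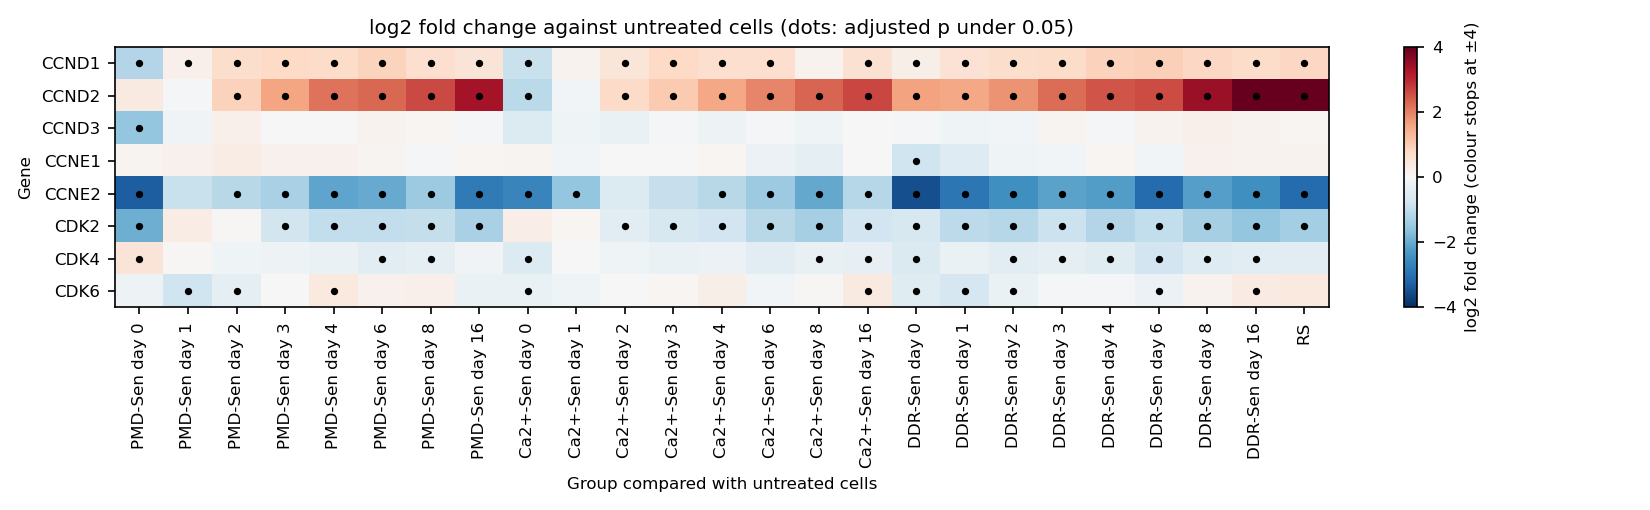
Log2 fold change against untreated cells (colour) of the 8 genes (rows) in the 25 comparisons (columns); dots mark an adjusted p under 0.05. CCND1 and CCND2 form the red rows and CCNE2 and CDK2 the blue rows, with the exceptions on the first days of PMD-Sen and Ca2+-Sen.

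CCND2, the D-type cyclin that was lowest per length in untreated cells, had the widest range of the 8 genes. It was called higher in 21 of the 25 comparisons and lower in 1. In PMD-Sen its level over the 8 collection days, in order of time, was 412, 313, 603, 969, 1459, 1583, 2006 and 3211 normalized counts, against 322 in untreated cells. The first pair of days was not called (log2 fold changes of 0.36 ± 0.20, adjusted p = 0.15, and -0.04 ± 0.21, adjusted p = 0.95), and every later day was. From day 1 on, each collection gave a higher level than the one before it.

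In Ca2+-Sen the levels of CCND2 over the same days were 154, 297, 552, 670, 930, 1242, 1602 and 2041. Day 0 was called lower (-1.06 ± 0.21, adjusted p = 1.3e-06), day 1 was not called (-0.12 ± 0.19, adjusted p = 0.83), and the 6 later days were called higher. In DDR-Sen the levels were 971, 940, 1124, 1501, 1851, 1964, 3530 and 6895, and all 8 days were called higher. Thus the day of the first call was day 2 in PMD-Sen, day 0 (as a fall) and day 2 (as a rise) in Ca2+-Sen, and day 0 in DDR-Sen. RS had the highest level, 12281.

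On the log2 scale the rise of CCND2 was 3.32 ± 0.18 on day 16 of PMD-Sen (9.99-fold, adjusted p = 8.7e-75), 2.67 ± 0.13 on day 16 of Ca2+-Sen (6.34-fold, adjusted p = 4.4e-89) and 4.42 ± 0.13 on day 16 of DDR-Sen (21.4-fold, adjusted p = 7.2e-234). In RS it was 5.25 ± 0.20 (38.2-fold, adjusted p = 2.4e-145). The order of these levels was RS, DDR-Sen, PMD-Sen, Ca2+-Sen. Neighbours in that order did not differ past the threshold at RS and DDR-Sen (difference of -0.83 ± 0.24 for DDR-Sen minus RS, adjusted p = 0.21) or at PMD-Sen and Ca2+-Sen (0.65 ± 0.22, adjusted p = 0.083), while PMD-Sen was lower than DDR-Sen (-1.10 ± 0.22, adjusted p = 0.001). The test carries the error of the untreated cells in both fold changes, and both of the uncalled differences pass the test when 50% of each squared SE is left out as shared.

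CCND1, the most abundant of the 8 genes per length, showed a fall on day 0 of the 2 membrane and calcium treatments and a rise later. Its level was 56621 normalized counts in untreated cells. In PMD-Sen it was 25251, 65526, 91255, 98137, 94992, 105009, 89622 and 80173 over the 8 days, and in Ca2+-Sen it was 30364, 62942, 78539, 98270, 90258, 91076, 62401 and 85812. In DDR-Sen it was 67187, 83830, 92945, 94642, 107065, 108605, 100379 and 93914, with all 8 days above the untreated level.

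The day 0 falls of CCND1 were -1.17 ± 0.12 in PMD-Sen (adjusted p = 1.3e-22) and -0.90 ± 0.07 in Ca2+-Sen (adjusted p = 2.3e-33). On the same day 7 of 10 fibroblast markers were lower and 1 higher in PMD-Sen, and 6 were lower and 3 higher in Ca2+-Sen. PECAM1 was higher in Ca2+-Sen. The part of these shifts in the values of day 0 for CCND1 and the genes below was not tested. DDR-Sen on day 0 was called higher by a small amount, 0.25 ± 0.10 (adjusted p = 0.041). Later days were called higher in PMD-Sen and DDR-Sen without exception, by 0.21 to 0.94 on the log2 scale. The smallest of these, on day 1 of PMD-Sen, was near the threshold (0.21 ± 0.08, adjusted p = 0.046). Ca2+-Sen had 2 days without a call, day 1 (0.15 ± 0.06, adjusted p = 0.11) and day 8 (0.14 ± 0.07, adjusted p = 0.087). Day 1 passes when libraries are scaled by their totals, at 0.20. On day 8 of Ca2+-Sen 33.4% of all tested genes were called, against 10.2% on day 6 and 11.9% on day 16, so this pair of libraries stands apart from its neighbours in time, and its part in the CCND1 value was not tested. RS was higher by 0.83 ± 0.14 (adjusted p = 8.2e-08).

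CCND3, the D-type cyclin most at home in blood cells, was called once in 25 comparisons. Its level of 4466 in untreated cells fell to 1537 on day 0 of PMD-Sen (-1.54 ± 0.30, adjusted p = 2.1e-06) and was 4027 on day 1. The other 22 treated groups ranged from 3046 (Ca2+-Sen day 0, -0.55 ± 0.28, adjusted p = 0.086) to 5138 (PMD-Sen day 2), and RS stood at 4748. The SE of CCND3 had a median of 0.28 over the tables, against 0.10 for the 1818 tested genes of similar level (within 2-fold), so moderate changes of this gene were harder to detect here. The SE of CCND2 was also above that of genes of its level (0.17 against 0.11).

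Per kb of annotated exon, CCND1 made up 93.5% of the summed D-type cyclin level in untreated cells, CCND3 6.14% and CCND2 0.358%. The CCND2 share was 2.52% on day 16 of PMD-Sen, 1.52% on day 16 of Ca2+-Sen, 4.53% on day 16 of DDR-Sen and 7.33% in RS. In DDR-Sen on day 16 and in RS the level per kb of CCND2 (963 and 1716) was above that of CCND3 (847 and 818), the reverse of untreated cells (44.9 and 770). Exon lengths were taken from GENCODE, and the annotation behind the counts is not given in the sources used here.

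**Figure D3:**
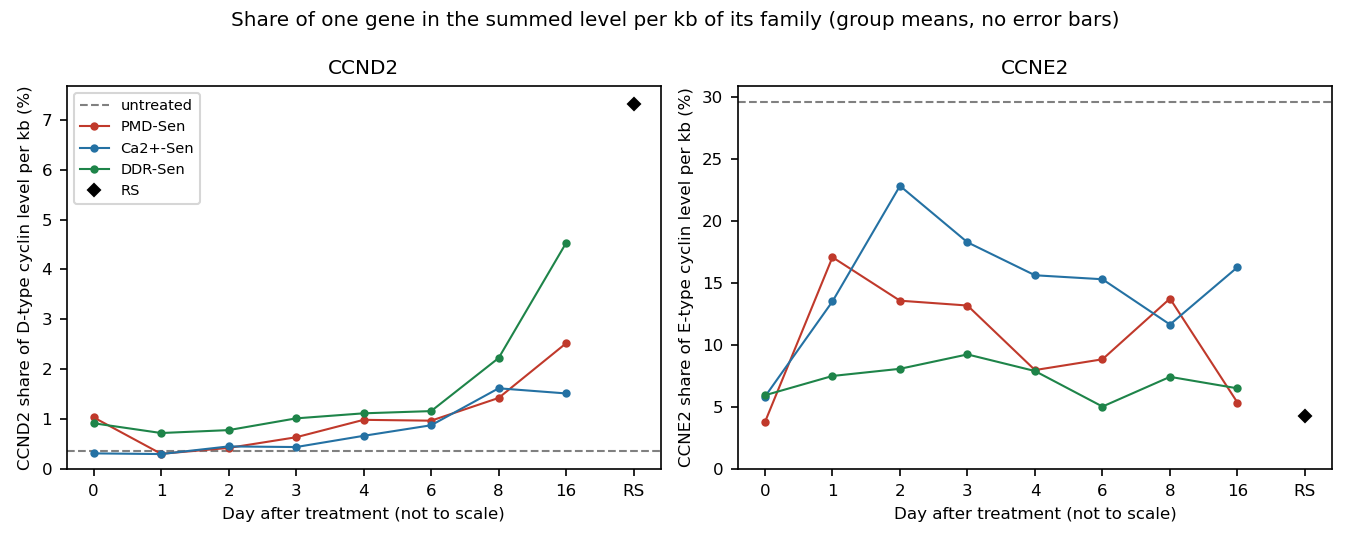
Share (%) of CCND2 in the summed level per kb of the 3 D-type cyclins (left) and of CCNE2 in that of the 2 E-type cyclins (right), by day after treatment and in RS; points are group values without error bars and the dashed line is the untreated share. In RS, a separate group of cells, the CCND2 share is 7.33% against 0.358% in untreated cells, and the CCNE2 share is 4.31% against 29.6%.

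The E-type cyclins, the partners of CDK2, went separate ways. CCNE2 had 139 normalized counts in untreated cells and was lower in every one of the 25 comparisons by value, with 22 called. In PMD-Sen its levels over the 8 days were 14.1, 75.8, 64.2, 57.0, 32.5, 34.4, 50.7 and 19.5. In Ca2+-Sen they were 22.3, 47.4, 95.5, 72.9, 64.3, 51.1, 33.6 and 63.1. In DDR-Sen they were 12.1, 18.7, 25.5, 31.4, 29.6, 16.3, 30.1 and 25.1, all called. The deepest value, -3.51 ± 0.44 on day 0 of DDR-Sen (11.4-fold lower, adjusted p = 3.4e-14), was followed by -3.29 ± 0.50 on day 0 of PMD-Sen (adjusted p = 5.7e-10) and -3.09 ± 0.50 in RS (16.3 normalized counts, adjusted p = 2.7e-08).

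The 3 groups in which CCNE2 was not called were day 1 of PMD-Sen (-0.88 ± 0.38, adjusted p = 0.091) and days 2 and 3 of Ca2+-Sen (-0.54 ± 0.35, adjusted p = 0.60, and -0.93 ± 0.38, adjusted p = 0.11). After SDS the gene rose from day 0 to day 1, where the difference between these days was 2.42 ± 0.63 (adjusted p = 0.0008). Its share of the E-type cyclin level per kb was 29.6% in untreated cells, 5.36% on day 16 of PMD-Sen, 16.3% on day 16 of Ca2+-Sen, 6.51% on day 16 of DDR-Sen and 4.31% in RS.

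CCNE1, at 191 normalized counts in untreated cells, was called only on day 0 of DDR-Sen, at 111 (-0.78 ± 0.25, adjusted p = 0.0081). Its level was 134 on the next day (-0.52 ± 0.25, adjusted p = 0.15), and the 22 other treated groups ranged from 148 (Ca2+-Sen day 8) to 237 (PMD-Sen day 2), with 210 in RS. The SE of CCNE1 lay between 0.21 and 0.27. Changes of that size, and larger ones such as the -0.52 ± 0.25 above, were not called in these libraries.

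Of the kinases, CDK2, which works with cyclins E and A, was lower in 21 of the 25 comparisons. Untreated cells had 965 normalized counts. PMD-Sen had 252 on day 0, 1176 on day 1, 1008 on day 2 and then 583, 484, 491, 495 and 394 on days 3, 4, 6, 8 and 16. The fall of -1.94 ± 0.19 on day 0 (adjusted p = 2.3e-23) was followed by 2 days without a call (0.28 ± 0.14, adjusted p = 0.17, and 0.06 ± 0.14, adjusted p = 0.87) and by a lower level on all later days, from -0.73 ± 0.16 on day 3 (adjusted p = 0.00013) to -1.29 ± 0.20 on day 16 (adjusted p = 2.5e-09).

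CDK2 in Ca2+-Sen showed no early fall. Its levels were 1169, 1020, 700, 613, 571, 449, 382 and 563, called lower from day 2 (-0.46 ± 0.14, adjusted p = 0.034). Day 0 was not called at 0.28 ± 0.13 (adjusted p = 0.067), and it is called higher when fold changes are centred on the median gene (0.31) or scaled by library totals (0.34). In DDR-Sen the levels were 613, 467, 439, 532, 426, 484, 382 and 332, called lower on all 8 days and down to -1.54 ± 0.18 on day 16 (adjusted p = 1.9e-16). RS had 380 (-1.35 ± 0.22, adjusted p = 2.1e-08).

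CDK4, a partner of the D-type cyclins, changed by less than 1 on the log2 scale in every group. From 1526 in untreated cells it rose to 2204 on day 0 of PMD-Sen (0.53 ± 0.12, adjusted p = 9.1e-05) and fell on day 0 of Ca2+-Sen to 1035 (-0.56 ± 0.12, adjusted p = 5.2e-06) and of DDR-Sen to 1025 (-0.57 ± 0.13, adjusted p = 7.3e-05). In PMD-Sen it was called lower on days 6 and 8 (1117 and 1170), and in Ca2+-Sen on days 8 and 16 (1248 and 1215). DDR-Sen was lower on 7 of 8 days, with the lowest level of the series, 900, on day 6 (-0.76 ± 0.12, adjusted p = 5.1e-09). RS, at 1110, was not called (-0.46 ± 0.23, adjusted p = 0.14).

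CDK6, the other partner of the D-type cyclins, was called lower in 7 comparisons and higher in 3, from 4099 in untreated cells. The lower values came early: 2361 on day 1 of PMD-Sen (-0.80 ± 0.10, adjusted p = 3.6e-13), 3168 on day 2 of PMD-Sen, 3384 on day 0 of Ca2+-Sen, and 2902, 2579 and 3425 on days 0, 1 and 2 of DDR-Sen, with 3454 on day 6 of DDR-Sen besides. The DDR-Sen values of days 2 and 6 lose their call when libraries are scaled by their totals (-0.23 and -0.20), while day 4 of Ca2+-Sen, at 4835 and not called (0.24 ± 0.09, adjusted p = 0.051), is then called higher (0.25). The higher values were 5406 on day 4 of PMD-Sen (0.40 ± 0.09, adjusted p = 0.00015), 5271 on day 16 of Ca2+-Sen (0.36 ± 0.08, adjusted p = 0.00016) and 5147 on day 16 of DDR-Sen (0.33 ± 0.12, adjusted p = 0.019).

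In PMD-Sen on day 16 CDK6 had 3400 and in RS 5346, neither of them called (-0.27 ± 0.17, adjusted p = 0.28, and 0.38 ± 0.29, adjusted p = 0.37). The SE of CDK6 was 0.35 on day 6 of PMD-Sen, against a median of 0.10 over the tables, so the 2 libraries of that day gave little information on this gene. Per kb of exon, CDK6 made up 41.0% of the summed CDK4 and CDK6 level in untreated cells, 38.8% on day 16 of PMD-Sen, 52.9% on day 16 of Ca2+-Sen, 54.6% on day 16 of DDR-Sen and 55.5% in RS.

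Direct comparison of inducers on the same day asked which of these changes depended on the inducer. The difference of 2 log2 fold changes was set against both SE combined, so that the error of the untreated pair enters 2 times and calls are made less readily. Between PMD-Sen and DDR-Sen, 6 of the 8 genes differed on day 0 (28.7% of all tested genes), 4 on day 1 (12.3%), 2 on day 2 (7.32%), 0 on days 3 (1.81%), 4 (0.753%) and 6 (0.625%), and 1 on days 8 (0.813%) and 16 (0.195%). Between PMD-Sen and Ca2+-Sen it was 4 on day 0 (38.7%), 1 on day 1 (4.42%), 0 on days 2 (2.39%), 3 (0.148%), 4 (0.148%) and 6 (0.0134%), and 1 on days 8 (3.29%) and 16 (2.72%). Between Ca2+-Sen and DDR-Sen it was 4 on day 0 (37.1%), 4 on day 1 (7.76%), 3 on day 2 (3.22%), 1 on days 3 (1.55%) and 4 (1.14%), 0 on day 6 (0.672%), and 2 on days 8 (4.89%) and 16 (6.39%). The day 0 counts of 4 of 8 in the pairs with Ca2+-Sen were not far above the shares of all tested genes. In the 8 comparisons with 0 calls by this normal test, between 0 and 3 of the genes had an unadjusted p under 0.05, and between 0 and 3 were called when 50% of each squared SE was left out as shared.

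**Figure D4:**
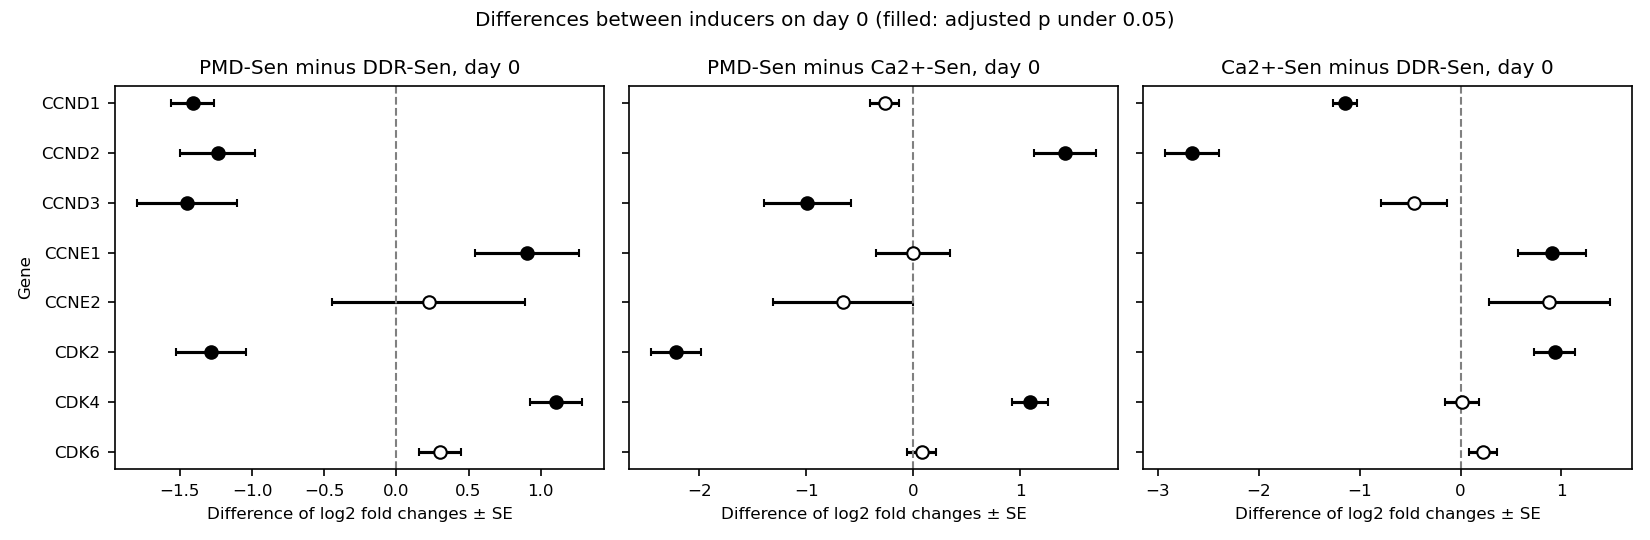
Differences of log2 fold changes between pairs of inducers on day 0 (x axis) for the 8 genes (y axis), with their SE as bars; filled points have an adjusted p under 0.05. CCND2 reaches -2.66 for Ca2+-Sen minus DDR-Sen, and CDK2 reaches -2.22 for PMD-Sen minus Ca2+-Sen.

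On day 0 CDK2 was lower in PMD-Sen than in Ca2+-Sen by -2.22 ± 0.23 (adjusted p = 2.5e-20) and than in DDR-Sen by -1.28 ± 0.24 (adjusted p = 1.9e-06). One day later the order with DDR-Sen had turned, since CDK2 was higher in PMD-Sen by 1.33 ± 0.21 (adjusted p = 7.4e-09), and it was still higher on day 2 by 1.20 ± 0.21 (adjusted p = 6e-07). CDK4 on day 0 was higher in PMD-Sen than in Ca2+-Sen by 1.09 ± 0.17 (adjusted p = 1.5e-09) and than in DDR-Sen by 1.11 ± 0.18 (adjusted p = 1.1e-08). CCND3 was lower there than in either, by -0.99 ± 0.41 (adjusted p = 0.042) and -1.45 ± 0.35 (adjusted p = 0.00021).

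CCND2 separated DDR-Sen from the other treatments for most of the course. It was lower in Ca2+-Sen than in DDR-Sen on 7 of 8 days, all but day 6, from -2.66 ± 0.27 on day 0 (adjusted p = 1.6e-21) to -1.76 ± 0.19 on day 16 (adjusted p = 2.1e-18). PMD-Sen was lower than DDR-Sen on days 0, 1, 2, 8 and 16, by -1.59 ± 0.28 on day 1 (adjusted p = 3e-07). CCND1 on day 0 was lower than in DDR-Sen in both PMD-Sen (-1.41 ± 0.15, adjusted p = 4.1e-19) and Ca2+-Sen (-1.15 ± 0.12, adjusted p = 2.1e-19). CCNE2 differed on day 1 between PMD-Sen and DDR-Sen (2.01 ± 0.57, adjusted p = 0.0057) and on day 2 between Ca2+-Sen and DDR-Sen (1.90 ± 0.56, adjusted p = 0.025), lower in DDR-Sen both times. CCNE1 on day 0 was higher than in DDR-Sen in PMD-Sen (0.91 ± 0.36, adjusted p = 0.042) and in Ca2+-Sen (0.91 ± 0.34, adjusted p = 0.023).

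CDK2 was higher in Ca2+-Sen than in DDR-Sen on day 0 (0.93 ± 0.20, adjusted p = 3.3e-05), day 1 (1.13 ± 0.20, adjusted p = 1.1e-06), day 2 (0.67 ± 0.21, adjusted p = 0.046, a call that is lost when libraries are scaled by their totals) and day 16 (0.76 ± 0.23, adjusted p = 0.019). CDK6 was lower in PMD-Sen than in Ca2+-Sen on day 1 (-0.61 ± 0.13, adjusted p = 0.00028) and on day 16 (-0.63 ± 0.19, adjusted p = 0.032). On day 8, where the Ca2+-Sen libraries stood apart, CCND1 was lower in Ca2+-Sen than in PMD-Sen (0.52 ± 0.14 for PMD-Sen minus Ca2+-Sen, adjusted p = 0.0097) and than in DDR-Sen (-0.69 ± 0.11, adjusted p = 1.2e-07).

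Within an inducer, day 1 minus day 0 called 6 of the 8 genes in PMD-Sen (29.1% of all tested genes) and 3 in Ca2+-Sen (36.5%). The share in Ca2+-Sen (3 of 8) was near that of all tested genes. In DDR-Sen 0 were called (3.55%), where 1 gene had an unadjusted p under 0.05 and 1 was called with 50% of each squared SE left out. After SDS, CCND1 rose by 1.38 ± 0.14 (adjusted p = 9e-21), CCND3 by 1.39 ± 0.41 (adjusted p = 0.0041) and CDK2 by 2.22 ± 0.24 (adjusted p = 3.2e-19) from day 0 to day 1, while CDK4 (-0.50 ± 0.17, adjusted p = 0.014) and CDK6 (-0.60 ± 0.15, adjusted p = 0.00027) fell. After KCl, CCND1 rose by 1.05 ± 0.10 (adjusted p = 3.6e-25), CCND2 by 0.95 ± 0.28 (adjusted p = 0.0029) and CDK4 by 0.58 ± 0.16 (adjusted p = 0.00099).

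From day 0 to day 16, 4 genes differed in PMD-Sen (28.4% of all tested genes), 5 in Ca2+-Sen (34.5%) and 4 in DDR-Sen (12.7%). CCND1 and CCND2 rose in each, CCND2 by 2.96 ± 0.27 (adjusted p = 1.3e-26), 3.73 ± 0.24 (adjusted p = 7.9e-50) and 2.83 ± 0.21 (adjusted p = 2.6e-36). CDK2 fell by 1.06 on the log2 scale in Ca2+-Sen (SE 0.20, adjusted p = 9.4e-07) and by 0.89 in DDR-Sen (SE 0.24, adjusted p = 0.0028), and in PMD-Sen its difference was 0.64 ± 0.27 (adjusted p = 0.061). CDK6 rose in Ca2+-Sen by 0.64 ± 0.12 (adjusted p = 5.8e-07) and in DDR-Sen by 0.83 ± 0.16 (adjusted p = 4.9e-06). Day 16 minus RS called 1 gene in PMD-Sen (0.686%), CCND2 at -1.94 ± 0.27 (adjusted p = 3.9e-09), and 2 in Ca2+-Sen (4.26%), CCND2 at -2.59 ± 0.24 (adjusted p = 1.1e-23) and CCNE2 at 1.95 ± 0.63 (adjusted p = 0.045). For DDR-Sen it called 0 (0.148%), with 1 gene, CCND2, at an unadjusted p under 0.05 and called with 50% of each squared SE left out.

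Other genes of the same control circuit were counted from lists written with earlier results of these data known. The S phase and mitotic cyclins with CDK1 (4 genes) moved one way: 0 were higher in any comparison, 4 of 4 were lower on all days of DDR-Sen and in RS, and 2 to 4 were lower on the days of PMD-Sen and Ca2+-Sen. CDK1, the mitotic kinase, went from 716 normalized counts in untreated cells to 31.2 in RS, and CCNA2, which takes over CDK2 after the E-type cyclins, from 1161 to 101. On day 2 the list was least low in PMD-Sen and Ca2+-Sen, with medians of -0.41 and -0.58, against -3.90 in DDR-Sen. The median over all tested genes was within 0.04 of 0 in every comparison.

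Of 7 CDK inhibitors, 1 to 3 were higher and 1 to 3 lower in each treated group and in RS, with a median log2 fold change of -0.37 to 0.79. CDKN2C, an inhibitor of CDK4 and CDK6, was lower in all 25 comparisons, from 460 in untreated cells to 27.0 on day 16 of DDR-Sen, and CDKN2B, another inhibitor of these kinases, was higher in 19, up to 1473 on day 0 of Ca2+-Sen. CDKN1A, which encodes p21 and is named here after its values were seen, was higher in 24, from 19667 to as much as 83655. The remaining inhibitors are likewise named after their values were seen. CDKN2A was higher in 14 comparisons and lower in 1, CDKN1B lower in 4, CDKN2D lower in 1, and CDKN1C was never called. Of 12 tested RB and E2F genes (13 listed), 1 to 7 were lower and 0 to 2 higher, with a median of -0.52 to -0.07. E2F8, a repressor of E2F targets, was lower in 19 comparisons and RBL1, a relative of RB, in 23. Among 7 genes that act on the turnover of cyclins D and E, 0 to 3 were higher and 1 to 4 lower, with a median of -0.46 to 0.19. CKS1B, which works with SKP2, was lower in 24 comparisons and SKP2, which marks p27 and cyclin E for destruction, in 17.

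Of 4 activators of these kinases, 0 to 1 were higher and 0 to 3 lower, with a median of -0.72 to 0.42. CDC25A, the phosphatase that frees CDK2 for activity, was lower in 16 comparisons, with 302 normalized counts in untreated cells and 77.2 in RS. CDK7, the kinase that activates the others, was called higher in 8, but its level was 12.3 in untreated cells and between 17.2 and 431 elsewhere, with an SE of up to 1.67. Of 5 mitogen response factors, 0 to 2 were higher and 0 to 4 lower, with a median of -1.09 to 0.31. FOSL1, a subunit of the AP-1 factor, was lower in 19 comparisons (4708 in untreated cells, 2261 in RS), while FOS, at 28.0 normalized counts in untreated cells, was higher in 3 and lower in 1.

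For each of the 8 genes, the tested genes with a mean of at least 100 whose log2 level was most alike over the 26 groups were listed, as a description with no test, since all groups share the untreated libraries. For CCND2 they were KNDC1 (Pearson r = 0.98), LGMN (0.96) and ASAH1 (0.95), the last 2 encoding lysosomal enzymes. For CCNE2 they were FAM111B (0.95), WDR76 (0.94) and CENPI (0.93), and for CDK2 DIAPH1 (0.93), HPS3 (0.93) and HNRNPM (0.92). CCND1 was most like SLC12A9 (0.93), VAMP3 (0.92) and TSPAN17 (0.92), CCND3 like GNPTAB (0.93), HMCES (0.91) and MINK1 (0.90), and CCNE1 like DEGS1 (0.87), VKORC1L1 (0.86) and ST6GALNAC4 (0.83). CDK4 was most like COP1 (0.91), EXOSC8 (0.90) and EIF4EBP1 (0.87), and CDK6 like ZNHIT6 (0.84), SEC61A2 (0.84) and IL12A (0.83). Among the 8 genes themselves the highest value was 0.84 (CCND1 with CCND3) and the lowest -0.70 (CCND2 with CDK2).

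The genes lie apart in the genome (GRCh38, GENCODE annotation). CCND1 is on chromosome 11 (69641087 to 69654474, plus strand), CCND2 on chromosome 12 (4273772 to 4305350, plus), CCND3 on chromosome 6 (41934933 to 42050357, minus) and CCNE1 on chromosome 19 (29811898 to 29824308, plus). CDK2 (55966769 to 55972784, plus) and CDK4 (57747727 to 57756013, minus) are both on chromosome 12, and CDK6 is on chromosome 7 (92604921 to 92836594, minus). Exons of other genes on the opposite strand overlap some of them, and whether the counting used strand is not given in the sources used here, so reads in those stretches cannot be told apart, and their part in the values above was not tested. INTS8 overlaps 1629 of the 4397 exonic bases of CCNE2 and had 826 normalized counts in untreated cells and 455 in RS, against 139 and 16.3 for CCNE2. TSPAN31 overlaps 1369 of the 3168 exonic bases of CDK4 and had 404 in untreated cells and 685 in RS. The overlaps of LTO1 with CCND1 (497 of 4830 bases) and of CCND2-AS1 with CCND2 (126 of 7157) were smaller, as were those of PMEL (89 of 3894) and AC025162.1 (565 bases, listed at 0 in every group) with CDK2. CCND2-AS1 had 1.34 in untreated cells and 27.4 in RS, far below CCND2. On the same strand AC008012.1 overlaps 989 bases of CCND2 and had at most 0.362. Overlaps of CCND3 and CDK6 with other genes were 24 and 81 bases.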

How the data were processed

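RNA of WI-38 cells was sequenced, as mRNA sequencing per the study's methods, with 2 libraries in each of 26 groups. Groups were taken from the sample labels. Per the labels, the submitters' processing notes name Trim Galore, HISAT2, HTSeq, featureCounts and DESeq2 and the builds GRCh38 and hg38, and give no versions or annotation. The 52 files hold 25 distinct tables: both files of 24 conditions are the same, and 4 files (RS and untreated) hold the RS table. The authors deposited a mean normalized count (a signal that is never negative), a log2 fold change with its SE, their ratio as a score, and p-values with adjusted p-values. These columns are the authors' own comparisons with the untreated cells. They were used because no values per library were analysed here. The number of other columns with values of single samples was 0.

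The untreated level was computed as 2 × mean / (1 + fold) and tables were scaled by 8645 genes with a mean above 200 in all. The untreated level then had an SD of 0.00043 on the log2 scale over the tables (median). Genes with a mean of at least 10 over the groups were tested (14876). The deposited p-values were adjusted within each table, and differences were tested two-sided with the normal distribution. The 8 genes, the lists and the rules for named genes (all 8, the 2 of each list with the largest absolute median, the 3 most alike) were chosen with earlier results of these data known. The calculation was run on simulated counts whose SE was built from the same spread that generated them. How it performs with a spread estimated from 2 libraries was not tested. Alternatives were a change of at least 1, library totals, centring, a mean of at least 100, no filter, the authors' adjusted p and 50% shared error. Sequences and positions came from GENCODE for GRCh38. Calculations ran in Python (version 3.11.15) with Biopython 1.88, SciPy 1.17.1, NumPy 2.4.6, matplotlib 3.10.9 and pandas 2.3.3.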

Additional observations from a re-analysis of the deposited data

Results flagged for a closer look

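In all, 5 values, all on day 0, were flagged because a gene was called in opposite directions after different treatments and the difference itself passed the test. How many of all tested genes meet this rule was not counted, so whether 5 values are unusual cannot be told. On day 0, 40.0% (PMD-Sen), 50.2% (Ca2+-Sen) and 27.9% (DDR-Sen) of all tested genes were called. Between inducers 28.7% to 38.7% differed. CCND1 was lower than in untreated cells in PMD-Sen and Ca2+-Sen and higher in DDR-Sen, with differences of -1.41 (PMD-Sen minus DDR-Sen) and -1.15 (Ca2+-Sen minus DDR-Sen) on the log2 scale. Its rise in DDR-Sen was small and near the threshold (0.25 ± 0.10, adjusted p = 0.041). CCND2 was lower in Ca2+-Sen and higher in DDR-Sen, a difference of -2.66. CDK4 was higher in PMD-Sen and lower in the others, with differences of 1.11 (PMD-Sen minus DDR-Sen) and 1.09 (PMD-Sen minus Ca2+-Sen). With 2 libraries in a group, single libraries far from the rest could not be tested.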

How the results depend on the processing

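Requiring a log2 fold change of at least 1 lowered the calls against untreated cells most, from 34 to 16 in PMD-Sen, from 30 to 14 in Ca2+-Sen and from 45 to 21 in DDR-Sen. A difference of at least 1 lowered the count from 7 to 3 between PMD-Sen and Ca2+-Sen, from 17 to 9 between Ca2+-Sen and DDR-Sen and from 25 to 16 within inducers or against RS. Leaving out 50% of each squared SE as shared raised the count between PMD-Sen and Ca2+-Sen from 7 to 15. The shares of all tested genes under these alternatives are not given. Whether the 8 genes gained or lost calls more readily than other genes cannot be told from these counts. Other totals stayed within 1.5 times of their value, and of 200 values against untreated cells and 264 differences none changed direction while called under any alternative. Among the single values against untreated cells, a fold change of at least 1 ended 59 calls, no filter ended 10, and library totals ended 2 and added 3. Among the differences, a size of at least 1 ended 25, no filter ended 5, and shared error added 28. CCNE2 has a mean below 100 and was not tested under that filter. Scaling by library totals moved the split of all called genes on day 1 of Ca2+-Sen from 42.9% to 55.7% higher, where CCND1 was then called too. Leaving out day 8 of Ca2+-Sen, chosen after seeing the data, left 26 calls of its 30. No paired analysis was possible because the tables hold no values per library, and leaving out a replicate was not run for the same reason. Depth limits CCNE2 most, at 12.1 to 95.5 normalized counts after treatment.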
